A study of Mus musculus with 18 samples.

Results

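The receptors through which spinal motor neurons receive neurotrophic factors, and agrin, the protein by which their axon endings organise the muscle endplate, were followed across age in a mouse model of familial amyotrophic lateral sclerosis. The 9 genes are Cntfr, Lifr, Il6st, Gfra1, Ret, Ngfr, Ntrk2, Ntrk3 and Agrn. They were chosen by name, with earlier results of these data known. Every probe set whose platform annotation gives a single gene symbol equal to 1 of these 9 was taken. This gave 21 of the 22690 probe sets on the array. Of these 21, 13 passed the filter on low signal (above the median of the array in at least 3 of the 18 arrays) and were tested, with at least 1 for each gene, among 16565 tested probe sets in all.

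RNA was taken from motor neurons cut by laser from stained sections of the lumbar spinal cord, amplified, labelled with biotin and hybridized to 1 oligonucleotide array per animal. The G93A groups carried a human SOD1 transgene with the G93A mutation and were sampled at 60, 90 and 120 days. The control groups were their non-transgenic littermates at the same ages, with 3 animals in each of the 6 groups. The labels give no strain, sex, transgene copy number or disease score, and the cells of an animal were pooled on its array, so that fewer cells of a type and less RNA per cell cannot be told apart. Signals are the authors' MAS5 intensities on a linear scale, and differences are on the log2 scale after signals under 1 were set to 1.

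The receptor for ciliary neurotrophic factor is built from Cntfr, which binds the ligand and has no signalling domain of its own, and from Lifr and Il6st (gp130), which pass the signal to JAK kinases and STAT factors. Gfra1 binds glial cell line-derived neurotrophic factor (GDNF) and presents it to the receptor tyrosine kinase Ret. Ntrk2 (TrkB) is the kinase receptor of brain-derived neurotrophic factor, Ntrk3 (TrkC) is that of neurotrophin-3, and Ngfr (p75) binds all neurotrophins and carries a death domain. Several of these receptors support motor neuron survival during development, and rodent motor neurons express Ngfr again after nerve injury. Agrin is released from motor nerve endings, binds Lrp4 and activates the kinase Musk, which gathers acetylcholine receptors under the nerve ending.

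Among these genes Lifr and Agrn gave the largest differences that passed the test, and their promoters are shown for that reason. The sequences are those of RefSeq on build GRCm38.p6, reach from 250 bases before to 50 bases after an annotated start, and run 5′ to 3′ on the strand of the gene. Capitals mark GC boxes (GGGCGG or its reverse complement CCGCCC), the letters bound by Sp1-type factors. The first entry lies at chr15:7129322-7129621 (plus strand) for Lifr and at chr4:156197439-156197738 (minus strand) for Agrn:
Lifr: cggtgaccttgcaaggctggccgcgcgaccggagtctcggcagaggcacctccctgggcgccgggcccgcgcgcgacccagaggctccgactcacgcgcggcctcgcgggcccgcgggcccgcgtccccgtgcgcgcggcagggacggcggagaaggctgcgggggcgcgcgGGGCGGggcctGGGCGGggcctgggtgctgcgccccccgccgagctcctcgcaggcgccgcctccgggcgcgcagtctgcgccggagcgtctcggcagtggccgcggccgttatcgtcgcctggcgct
Agrn: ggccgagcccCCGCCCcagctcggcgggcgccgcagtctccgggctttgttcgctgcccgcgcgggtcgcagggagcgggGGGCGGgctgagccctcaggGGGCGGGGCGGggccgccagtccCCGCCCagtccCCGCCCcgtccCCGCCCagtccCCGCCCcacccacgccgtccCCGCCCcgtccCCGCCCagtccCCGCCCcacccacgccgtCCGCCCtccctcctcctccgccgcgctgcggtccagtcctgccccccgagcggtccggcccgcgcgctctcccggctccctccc
Both are rich in G and C, with 83.3% for Agrn and 81.3% for Lifr, against a median of 52.7% over the 32851 promoters of the table. The Lifr entry holds 2 GC boxes and 53 CpG pairs. The Agrn entry holds 12 GC boxes, of which 2 share a base, and 42 CpG pairs, and at least as many GC boxes stand in 7 of the 32851 promoters (0.0213%). At least 1 GC box is found in 35.7% of all promoters. Each gene has another annotated start, at chr15:7140292-7140591 for Lifr (53.3% G and C, 0 GC boxes) and at chr4:156186210-156186509 for Agrn (61.3% G and C, 2 GC boxes). Entries were found for 7 of the 9 genes, and Ret and Ntrk3 are named only. Another 4 motifs were searched on either strand and were in none of the entries of those 7 genes. The cAMP response element, TGACGTCA, is in 1.79% of all promoters. The AP-1 motif, written with N for any base as TGANTCA, is in 7.81% of them. The STAT motif, TTCNNNGAA, is in 8.30% of the promoters of the table. The TATA box, searched as TATAAA, is in 13.6% of them. These matches describe the letters of the windows and do not show binding.

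Among motor neuron markers, Isl2, Prph, Nefl, Nefm and Nefh lay above the array median in all 18 arrays, whereas the choline transporter Slc5a7 did so in 2 and the vesicular transporter Slc18a3 in 0. The summed signal of the 9 tested motor neuron markers averaged 14800, 15430 and 12400 in G93A at 60, 90 and 120 days, against 24190, 24350 and 21440 in controls, with overlap at each age. Nefl, at 6044.4 to 26845.7, was the brightest of the 9 and weighs most in these sums. The mean log2 signal of the 9 minus that of all genes overlapped at 60 days. At 90 days it was 1.98, 1.59 and 1.96 in G93A, against 2.27, 2.18 and 2.51 in controls. At 120 days it was 1.23, 0.90 and 1.42, against 2.34, 2.22 and 1.51, so G93A was lower without overlap at both ages. By gene, 3 of the 9 genotype differences were above 0 at each of these ages, and 0 were called. Their median was -0.67 at 90 days and -0.85 at 120 days. Log2 signals of arrays within a group correlated between 0.641 and 0.838 (median 0.742). The hybridization controls, bacterial transcripts added to each sample in known amount, averaged a log2 signal of 9.47 in G93A against 11.15 in controls at 60 days, and 11.62 in G93A at 120 days against 9.09 in G93A at 90 days. Neither pair overlapped, and G93A replicate 1 at 60 days stood apart at 7.75. The Gapdh ratio, the log2 difference between the 3′ and the 5′ Gapdh probe sets and higher where RNA is shortened, averaged 4.14 in G93A and 3.36 in controls at 60 days. An exact permutation test of 3 against 3 arrays cannot give a p under 0.1, which was the value for each of these 3 differences. The mouse Sod1 probe sets were not used here as a check of the human transgene.

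None of the 13 tested probe sets changed with genotype at an adjusted p below 0.05, the threshold used throughout. At 60 days 0.688% of all tested probe sets passed (114), at 90 days 0% (0), at 120 days 0.0241% (4), and in the mean over the 3 ages 0.0121% (2), so a count of 0 among 13 is close to the background. At an unadjusted p under 0.05 there were 3, 2 and 3 of the 13 at 60, 90 and 120 days and 1 in the mean, where the share of all tested probe sets was 12.6%, 4.56% (756), 12.2% and 7.74%. In the F test of whether the genotype difference changed with age, 0.417% of all probe sets (69) and 0 of the 13 passed, with 3 of the 13 and 13.1% of all probe sets (2163) under an unadjusted p of 0.05. The 13 differences had medians of -0.17, -0.10 and 0.39 at 60, 90 and 120 days, beside -0.07, -0.02 and 0.09 over all tested probe sets. The groups did not overlap for 5 of the 13 at 60 days, where 18.5% of all probe sets had no overlap, for 3 at 90 days (11.5% of all) and for 3 at 120 days (16.1% of all). Standard errors of these differences ran from 0.31 for Ntrk2 to 1.28 for Ngfr, and missing the threshold does not show that the groups were alike.

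**Figure D1:**
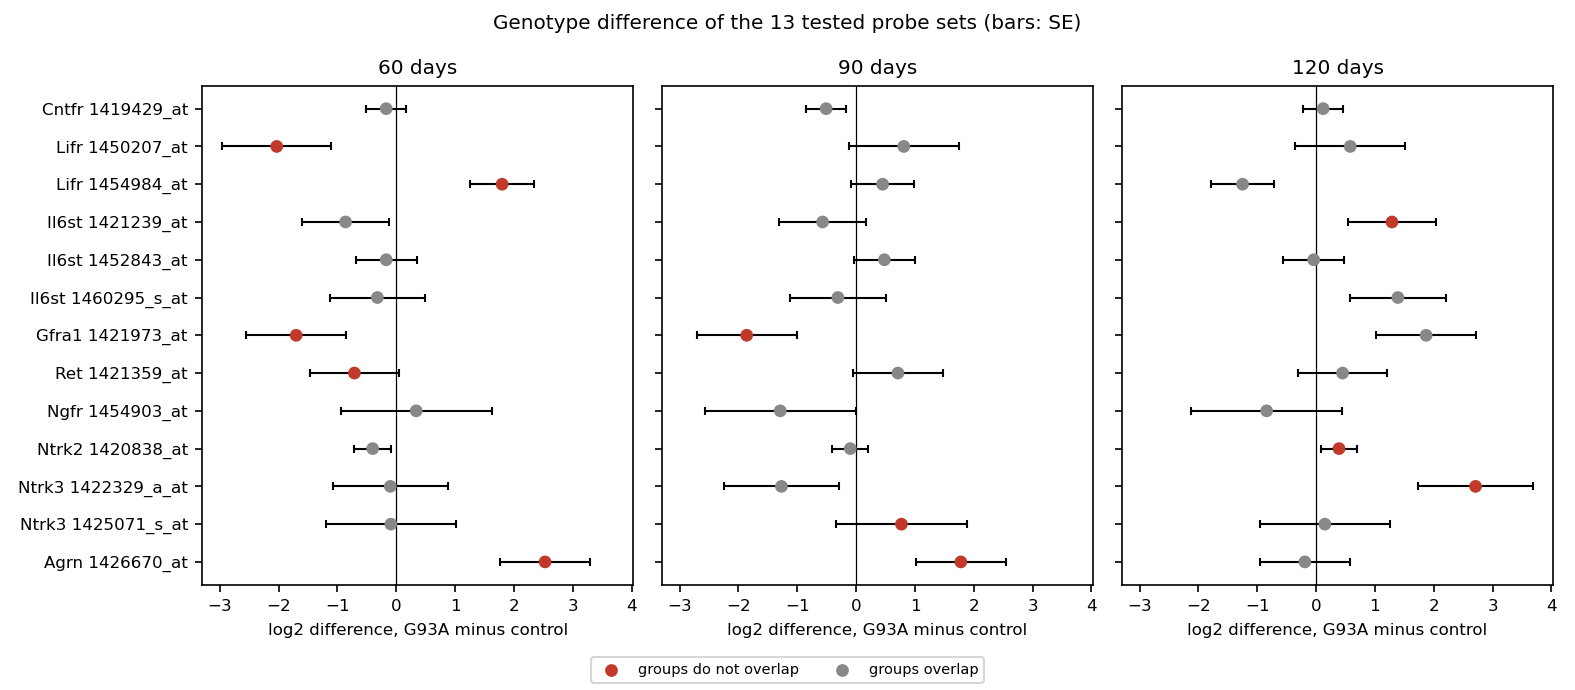
Difference in log2 signal, G93A minus control, of the 13 tested probe sets at 60, 90 and 120 days, with bars for the standard error of the limma fit (3 arrays per group). Red points are probe sets whose 3 G93A and 3 control arrays do not overlap (5, 3 and 3 at the 3 ages), and 0 of the 39 differences passed an adjusted p of 0.05.

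Lifr, the signalling chain shared by leukemia inhibitory factor and ciliary neurotrophic factor, read higher in every G93A array at 60 days by its brighter probe set, without passing the test, and not at the later ages. At 60 days its probe set 1454984_at read 481.4, 529.3 and 210.9 in G93A, against 208.2, 117.7 and 52.4 in controls. Its 90-day signals were 864.3, 337.7 and 528.0 in G93A, against 295.6, 561.7 and 366.4 in controls. Its 120-day signals were 67.2, 49.2 and 83.3 in G93A, against 385.5, 133.4 and 72.8 in controls. The gap at 60 days was narrow between G93A replicate 3 and control replicate 1, and the groups overlapped at the other ages. The genotype difference by limma came to 1.80 ± 0.54 at 60 days (adjusted p = 0.125), 0.45 ± 0.54 at 90 days (adjusted p = 0.997) and -1.25 ± 0.54 at 120 days (adjusted p = 0.346). Without control replicate 1 the difference at 60 days was 2.26 and passed (adjusted p = 0.0462), and with the hybridization-control level of each array as a covariate it was 0.95 (adjusted p = 0.898).

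This Lifr probe set changed with age within G93A. Its signal fell by 3.04 ± 0.54 on the log2 scale at 120 days against 90 days (limma, adjusted p = 0.00151, 8.24-fold lower) and fell by 2.54 ± 0.54 at 120 days against 60 days (adjusted p = 0.0167, 5.80-fold lower), with every 120-day array below every earlier G93A array. In controls the difference was -1.34 ± 0.54 at 120 against 90 days (adjusted p = 0.256), 0.51 ± 0.54 at 120 against 60 days (adjusted p = 0.583) and 1.86 ± 0.54 at 90 against 60 days (adjusted p = 0.0845). In the F test for a change of the genotype difference over the 3 ages this probe set did not pass (unadjusted p = 0.00201, adjusted p = 0.113). A single contrast of 120 against 60 days, added after the data were seen, gave -3.05 ± 0.76 for Lifr and passed (adjusted p = 0.0373), as did 2.02% of all probe sets (334). The same contrast for 90 against 60 days and for 120 against 90 days passed for 0% of probe sets each, and for Lifr gave -1.35 ± 0.76 (adjusted p = 0.960) and -1.70 ± 0.76 (adjusted p = 0.462).

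The Lifr signal tended to be lower on arrays with brighter hybridization controls, though not on each. Replicate 1 of the 120-day control group read 385.5, with a hybridization-control level of 10.98. On G93A arrays the hybridization controls ran from 11.34 to 11.99 at 120 days, from 8.96 to 9.33 at 90 days and from 7.75 to 10.68 at 60 days. With their level as a covariate the Lifr difference in G93A was -1.78 at 120 against 90 days (adjusted p = 0.343) and -1.46 at 120 against 60 days (adjusted p = 0.367), so neither call remained. Their level at 120 days did not overlap that at the earlier ages in G93A, so level and age cannot be told apart here. Over all probe sets the 1267 calls at 120 against 90 days became 18 with this covariate. With the Gapdh ratio as the covariate the values were -3.25 and -2.83. The difference at 120 against 60 days also lost its call when any 1 of 3 arrays was left out, with adjusted p = 0.0771 without G93A replicate 1 at 60 days, 0.0782 without G93A replicate 2 at 60 days and 0.0701 without G93A replicate 2 at 120 days.

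Markers of other cell types differed between the same G93A groups, where 7.65% of all tested probe sets were called at 120 against 90 days. The summed signal of 10 tested microglia and macrophage markers ran from 10420 to 16980 at 120 days, against 1778 to 3881 at 90 days, with 3 of the 10 called higher and 0 lower. That of 10 oligodendrocyte markers ran from 14810 to 21120, against 6316 to 10710, with 2 called higher and 0 lower. That of 12 astrocyte markers ran from 6994 to 10110, against 5068 to 6345, with 2 called higher and 1 lower. Only 6 of these 12 were above 0, with a median log2 difference of -0.11, so this sum does not describe the list as a whole. Endothelial and mural markers, 9 in number, ran from 1271 to 1849, against 546.2 to 872.2, with 1 called higher and 0 lower. These 4 sums did not overlap at 120 against 60 days either, where 5 of the 12 astrocyte markers were above 0 (median -0.11). The sum of 4 Schwann cell markers was lower at 120 than at 60 days without overlap, at 975.6 to 1398 against 1681 to 3080. Of these 4 markers 0 were called. Interneuron markers (8) ran lower, from 745.7 to 972.2 at 120 days against 1243 to 1393 at 90 days, with 0 called. Of the 9 motor neuron markers 3 were called lower at 120 against 90 days and 0 higher, namely Nefh at -2.22, Chodl at -2.36 and Prph at -1.64, while the sums of the 9 overlapped. Another 3 of the 9 were above 0, and the median log2 difference was -0.44. The mean log2 signal of the 9 minus that of all genes did not overlap, at 0.90 to 1.42 against 1.59 to 1.98. By genotype, the sum of 4 Schwann cell markers at 60 days was 1681 to 3080 in G93A, against 756.2 to 1347 in controls. The oligodendrocyte sum at that age was 8351 to 10780, against 5429 to 7720. At 120 days the microglia and macrophage sum was 10420 to 16980 in G93A, against 3619 to 6131 in controls. Of these 10 markers 10 were above 0, with 1 called higher and 0 lower. Csf1r, up to 13708.2, and C1qb, up to 4879.2, were the brightest of the list and weigh most in its sum. The interneuron sum at that age was 745.7 to 972.2, against 980.8 to 1768. The marker sums overlapped by genotype otherwise. The part of these lists in the Lifr, Cntfr and Agrn differences was not tested.

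The other tested Lifr probe set, 1450207_at, did not follow. At 60 days it read 9.4, 17.0 and 22.6 in G93A, against 33.6, 93.4 and 78.9 in controls, all 3 G93A arrays being lower (-2.03 ± 0.93, limma adjusted p = 0.355). Its difference in G93A was 0.28 ± 0.93 at 120 against 90 days (adjusted p = 0.900), and over the 18 arrays the pair of Lifr probe sets correlated at -0.33. It lay above the array median on 4 of 18 arrays, against 16 for 1454984_at, and the changes given above for Lifr rest on 1454984_at alone.

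**Figure D2:**
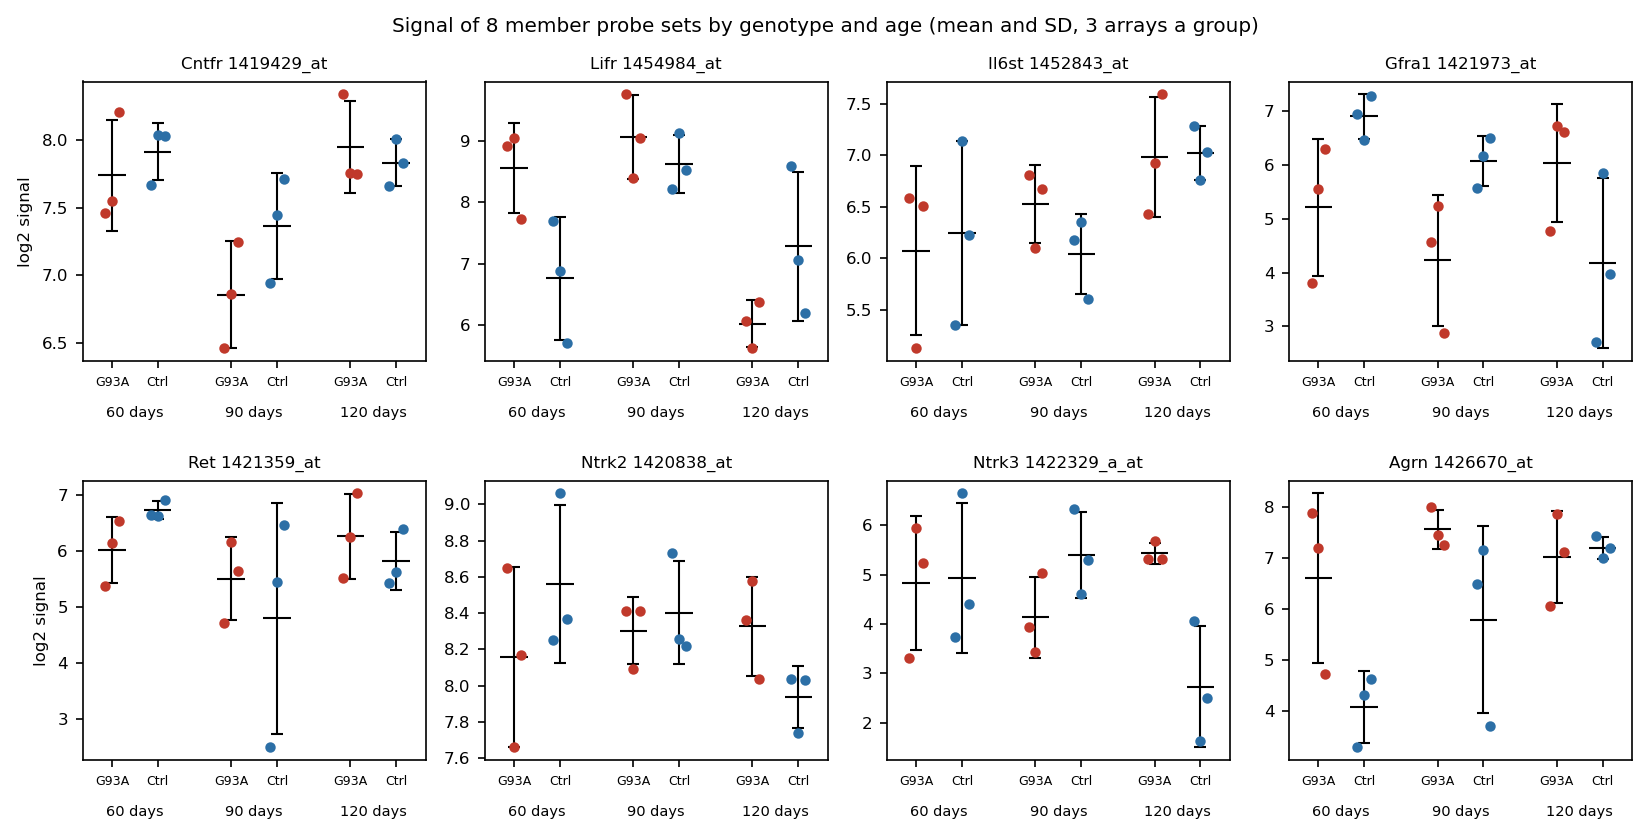
Log2 signal of 8 probe sets in each animal, G93A in red left of control (Ctrl) in blue at 60, 90 and 120 days, with the mean and SD of 3 arrays. Each gene is shown by its brightest tested probe set, except Ntrk3, shown by the dimmer 1422329_a_at, and Ngfr is not shown. The 3 G93A arrays at 120 days are below all 6 earlier G93A arrays for Lifr, and the 3 G93A arrays lie above all 3 controls for Agrn at 60 and 90 days.

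Cntfr, the ligand-binding chain, gave no genotype difference that passed and was higher in G93A at 120 than at 90 days. Its probe set 1419429_at, above the median on 18 of 18 arrays, read 176.2, 187.4 and 296.8 in G93A at 60 days, against 203.9, 262.5 and 260.6 in controls. The 90-day arrays read 87.9, 115.9 and 152.4 in G93A, against 123.0, 175.1 and 209.8 in controls. The 120-day arrays read 324.6, 216.8 and 215.3 in G93A, against 202.4, 258.2 and 228.0 in controls. The genotypes overlapped at every age, with differences of -0.17, -0.51 and 0.12 (SE 0.34 each). Within G93A the signal rose at 120 days against 90 days by 1.10 ± 0.34 (limma, adjusted p = 0.0498, 2.14-fold), every 120-day array being above every 90-day array. This call sat at the threshold: it held in 8 of 29 alternative settings, with adjusted p from 0.0356 to 0.587, and the difference was 0.79 with the hybridization-control covariate (adjusted p = 0.587). It lies in the comparison in which the microglia, oligodendrocyte, astrocyte and endothelial sums were higher without overlap. Of the 12 astrocyte markers there, 6 were above 0 (median -0.11). In the same comparison 3 of 9 motor neuron markers were called lower and 3 were above 0, where 7.65% of all probe sets were called. At 90 against 60 days the difference was -0.89 ± 0.34 in G93A (adjusted p = 0.823) and -0.54 ± 0.34 in controls (adjusted p = 0.480), and at 120 against 90 days it was 0.47 ± 0.34 in controls (adjusted p = 0.595).

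Il6st, the gp130 chain shared by most receptors of the interleukin-6 family, was read by 3 tested probe sets, none of which passed in any comparison. The brightest on average, 1452843_at, read 86.2, 121.3 and 193.2 in G93A at 120 days, against 155.8, 108.6 and 130.7 in controls (-0.04 ± 0.52, limma adjusted p = 0.986). For 1421239_at the 120-day signals were 49.7, 93.7 and 76.9 in G93A, against 32.5, 27.5 and 27.4 in controls. Here all G93A arrays were above the controls, with a difference of 1.29 ± 0.74 (adjusted p = 0.503). For 1460295_s_at the 120-day signals were 13.9, 92.2 and 83.4 in G93A, against 27.8, 8.5 and 24.9 in controls, and the difference was 1.39 ± 0.81 with overlap (adjusted p = 0.508). At 60 and 90 days the differences were -0.86 and -0.57 for 1421239_at, -0.17 and 0.48 for 1452843_at, and -0.32 and -0.31 for 1460295_s_at. The probe sets correlated with each other at -0.14 to 0.31 over the 18 arrays. The platform annotation gives 1421239_at and 1460295_s_at the same target sequence, so their 120-day differences are not independent readings of Il6st. It gives 1452843_at another target sequence.

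Gfra1, the GDNF-binding chain, was lower in every G93A array at 60 and 90 days without passing the test. Its probe set 1421973_at, above the median on 9 of 18 arrays, read 13.9, 46.7 and 78.5 in G93A at 60 days, against 124.9, 88.8 and 157.0 in controls. At 90 days it read 23.8, 37.8 and 7.3 in G93A, against 48.0, 72.1 and 90.3 in controls. The differences at these ages were -1.70 ± 0.85 (limma, adjusted p = 0.416) and -1.86 ± 0.85 (adjusted p = 0.997). At 120 days the mean was higher in G93A, with 27.3, 106.3 and 98.5 against 6.5, 57.5 and 15.7 in controls, a difference of 1.87 ± 0.85 with overlap (adjusted p = 0.380). The F test for a change of the genotype difference with age had an unadjusted p of 0.00718 and an adjusted p of 0.187. Within controls the difference was -2.74 ± 0.85 at 120 against 60 days (adjusted p = 0.0527), just outside the threshold, and within G93A it was 0.83 ± 0.85 (adjusted p = 0.678). The dimmer Gfra1 probe set 1450440_at was not tested. With no filter its genotype differences were -1.21, -1.30 and -0.21 at 60, 90 and 120 days (SE 1.03 each). The higher G93A mean at 120 days thus rests on 1421973_at alone.

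Ret, the kinase that Gfra1 works with, gave no difference that passed. Its probe set 1421359_at read 41.6, 71.1 and 93.1 in G93A at 60 days, against 100.4, 98.6 and 121.0 in controls. The 90-day signals were 26.2, 71.8 and 49.9 in G93A, against 5.6, 43.6 and 88.0 in controls. The 120-day signals were 45.7, 75.9 and 130.8 in G93A, against 42.8, 49.4 and 84.7 in controls. The genotypes stood apart at 60 days, G93A being lower in 3 of 3 arrays with a difference of -0.71 ± 0.76 (limma, adjusted p = 0.751), which is smaller than its standard error, and they overlapped at 90 and 120 days. The differences at those ages were 0.71 and 0.45, and in controls at 90 against 60 days it was -1.93 ± 0.76 (adjusted p = 0.220), with 1 control at 5.6.

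Ntrk2, the receptor of brain-derived neurotrophic factor, had the smallest standard error of the 13 probe sets. Its probe set 1420838_at read 400.8, 202.3 and 288.4 in G93A at 60 days, against 303.9, 533.1 and 331.9 in controls. Readings at 90 days were 339.6, 273.1 and 340.2 in G93A, against 424.7, 306.0 and 298.8 in controls. Readings at 120 days were 329.3, 382.4 and 263.5 in G93A, against 262.7, 213.7 and 260.8 in controls. At 120 days the lowest G93A array was just above the highest control, and the difference was 0.39 ± 0.31 (limma, adjusted p = 0.647). At the earlier ages it was -0.40 and -0.10, with overlap, and no comparison by age passed (lowest adjusted p = 0.220, for controls at 120 against 60 days, -0.63 ± 0.31).

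Ntrk3, the receptor of neurotrophin-3, was dim: both tested probe sets were above the median on 3 of 18 arrays. At 120 days 1422329_a_at read 40.0, 51.1 and 39.8 in G93A, against 16.7, 3.1 and 5.6 in controls, all G93A arrays being above the controls (2.71 ± 0.98, limma adjusted p = 0.258). At 60 days it read 9.9, 61.9 and 37.6 in G93A, against 13.3, 100.6 and 21.3 in controls. At 90 days it read 15.3, 10.8 and 33.0 in G93A, against 80.3, 24.2 and 39.0 in controls. Those earlier groups overlapped, with differences of -0.10 and -1.27. The 120-day gap lay beside a difference within controls of -2.68 ± 0.98 at 120 against 90 days (adjusted p = 0.204), while G93A gave 1.30 ± 0.98 (adjusted p = 0.482). The other probe set, 1425071_s_at, gave -0.09, 0.77 and 0.15 at the 3 ages (SE 1.11 each). Its signals at 90 days were 46.9, 28.4 and 36.0 in G93A, against 28.1, 15.3 and 22.4 in controls, and the groups stood apart by less than 1 signal unit.

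Ngfr had the largest standard error of the 13. Its tested probe set 1454903_at read 67.1, 70.8 and 8.4 in G93A at 60 days, against 19.8, 5.4 and 185.5 in controls. At 90 days it read 38.5, 12.6 and 8.1 in G93A, against 108.6, 41.9 and 12.6 in controls. At 120 days it read 8.0, 48.3 and 10.9 in G93A, against 62.7, 72.1 and 5.3 in controls. High and low arrays stood side by side within each group, and the differences of 0.34, -1.29 and -0.84 were each close to or below their standard error of 1.28 (limma, adjusted p from 0.836 to 0.997).

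Agrn, measured by 1426670_at, was higher in every G93A array at 60 and 90 days without passing the test, and rose with age in controls. At 60 days it read 239.0, 146.8 and 26.3 in G93A, against 9.7, 19.9 and 24.8 in controls. At 90 days it read 255.2, 174.3 and 154.6 in G93A, against 90.4, 144.5 and 13.1 in controls. At 120 days it read 67.4, 233.5 and 139.5 in G93A, against 172.1, 127.7 and 147.3 in controls. At 60 days G93A replicate 3 lay just above the highest control, and the groups overlapped at 120 days. The difference was 2.53 ± 0.77 at 60 days (limma, unadjusted p = 0.00294, adjusted p = 0.128), 1.78 ± 0.77 at 90 days (adjusted p = 0.997) and -0.19 ± 0.77 at 120 days (adjusted p = 0.953). Over the 3 ages it averaged 1.37 ± 0.44 (unadjusted p = 0.00476, adjusted p = 0.450). Leaving out G93A replicate 3 gave 3.47 at 60 days, which passed (adjusted p = 0.0274).

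Within controls Agrn rose by 3.13 ± 0.77 at 120 against 60 days (limma, adjusted p = 0.0163, 8.78-fold), each 120-day array being above each 60-day array. Within G93A the same difference was 0.42 ± 0.77 (adjusted p = 0.842), and the test of the difference between the genotypes gave -2.72 (adjusted p = 0.194), which did not pass. Agrn signal tended to be high on arrays with a high Gapdh ratio. An exception was G93A replicate 1 at 120 days, with 67.4 at a ratio of 4.65. In controls that ratio averaged 4.48 at 120 days against 3.36 at 60 days, without overlap (exact permutation p = 0.1). Ratio and age thus cannot be told apart there. With the ratio as a covariate the difference in controls was 1.62 (adjusted p = 0.427), and the genotype differences were 1.48 at 60 days, 0.22 at 90 days and 0.30 in the mean. With the hybridization controls as the covariate the difference in controls was 3.49 (adjusted p = 0.00328) and the genotype difference at 60 days was 1.31. The call in controls was lost without control replicate 1 at 60 days (2.74, adjusted p = 0.056) and without control replicate 1 at 120 days (3.02, adjusted p = 0.0546). In controls the summed signal of 10 tested oligodendrocyte markers ran from 15090 to 23300 at 120 days, against 5429 to 7720 at 60 days. Of the 10, 2 were called higher and 0 lower, where 6.71% of all probe sets were called. The astrocyte sum ran from 5662 to 8037, against 3623 to 5112, with 0 of 12 called. Of 10 microglia and macrophage markers 2 were called higher and 2 lower. Of 8 interneuron markers 1 was called higher and 0 lower, and both of these sums overlapped. The part of these lists in the Agrn result was not tested.

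**Figure D3:**
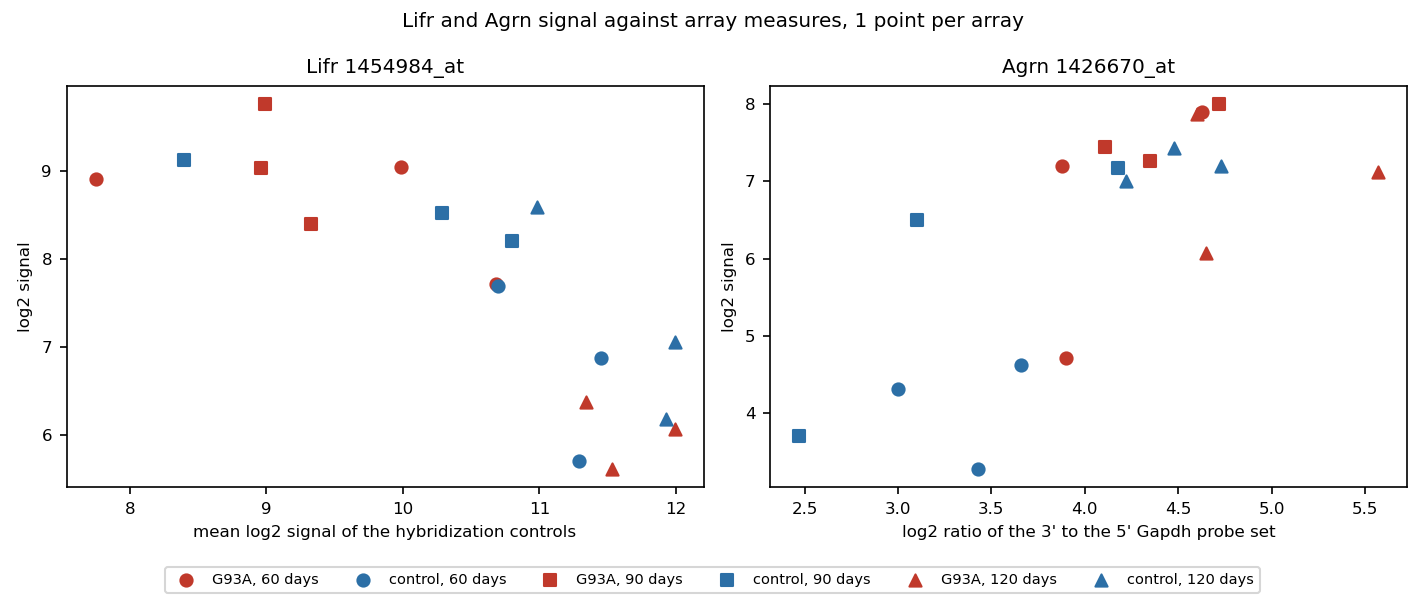
Log2 signal of Lifr 1454984_at against the mean log2 signal of 18 hybridization-control probe sets (left) and of Agrn 1426670_at against the Gapdh ratio, 3′ over 5′ on the log2 scale (right), 1 point per array, G93A in red and control in blue. The 3 G93A arrays at 120 days combine low Lifr signal with hybridization controls at 11.34 to 11.99, and the 3 control arrays at 60 days combine low Agrn signal with a Gapdh ratio averaging 3.36.

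Of the comparisons by age, those within G93A called 0% of all probe sets at 90 against 60 days (0), 7.65% at 120 against 90 days (1267) and 2.00% at 120 against 60 days (331), and 0, 2 and 1 of the 13. The 2 were Lifr 1454984_at, which fell, and Cntfr 1419429_at, which rose. Those within controls called 1.61% at 90 against 60 days (266), 1.04% at 120 against 90 days (173) and 6.71% at 120 against 60 days (1112), and 0, 0 and 1 of the 13, the last being Agrn. At an unadjusted p under 0.05 there were 1, 3 and 2 of the 13 in G93A, in the same order of comparisons, where the share of all probe sets was 5.49% (909), 21.8% and 16.3%. In controls there were 4, 4 and 3 of the 13, where the share of all was 14.8%, 13.6% and 24.5%. In G93A 9 of the 13 differences at 120 against 90 days were above 0 (median 0.28, beside -0.05 over all), and in controls 4 of the 13 at 120 against 60 days were (median -0.63, beside -0.26 over all).

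**Figure D4:**
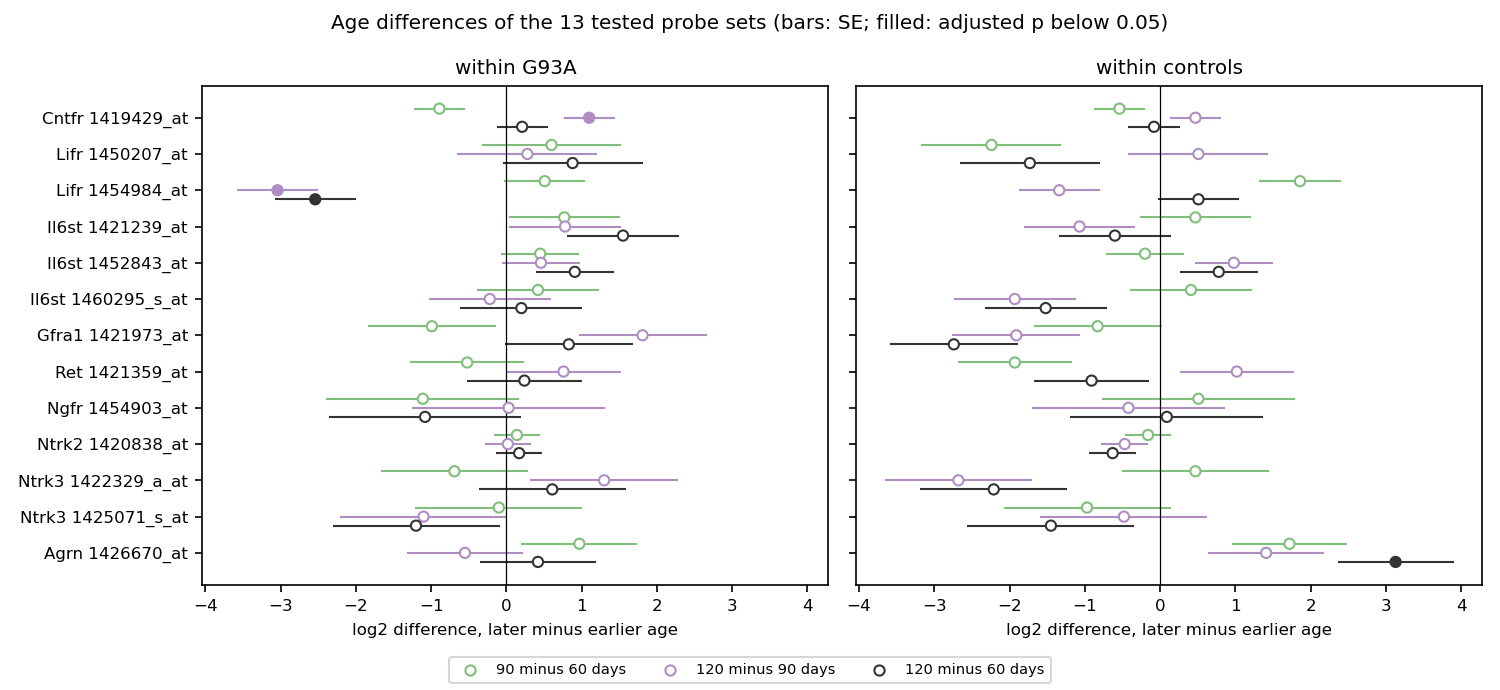
Difference in log2 signal between ages of the 13 tested probe sets, later minus earlier, within G93A (left) and within controls (right), with bars for the standard error of the limma fit. Filled points passed an adjusted p of 0.05: Lifr 1454984_at at -3.04 and -2.54 and Cntfr 1419429_at at 1.10 within G93A, and Agrn 1426670_at at 3.13 within controls.

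The other 8 probe sets were too dim to test. Lifr 1425107_a_at ranged from 1.6 to 46.7, Ngfr 1421241_at from 2.1 to 8.5 and 1450177_at from 2.0 to 74.1, Ntrk2 1420837_at from 1.9 to 49.1, and Gfra1 1450440_at from 4.6 to 83.0. Ntrk3 1425070_at and 1426003_at were above the array median on 0 and 2 of 18 arrays. For Cntfr 1431663_a_at the 120-day signals were 32.8, 43.0 and 59.0 in G93A, against 3.7, 4.9 and 8.6 in controls, without overlap. At that age 16.1% of all tested probe sets had no overlap. With no filter the difference of 1431663_a_at was 3.02 ± 1.05 (limma, adjusted p = 0.26), whereas the bright Cntfr probe set gave 0.12 ± 0.34 at that age, and the pair correlated at 0.08 over the 18 arrays. The unadjusted limma p of that difference, 0.00803, was the lowest of the 8 untested probe sets over the genotype comparisons.

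When the 6 group means of each tested probe set were put in order, the gap between neighbours was larger than the larger of their SDs in 8 of 65 cases. For Lifr 1454984_at the mean log2 signals were 9.07 in G93A and 8.62 in controls at 90 days, 8.56 in G93A at 60 days, 7.28 in controls at 120 days, 6.76 in controls at 60 days and 6.02 in G93A at 120 days. In that order, high to low, the step between G93A at 60 days and controls at 120 days exceeded the SD, although arrays of those groups overlapped. For Gfra1 1421973_at controls at 60 days had the highest mean, 6.91 ± 0.41 (SD, n = 3), and the next, controls at 90 days, had 6.08 ± 0.46, a gap above the SD although the lowest array of the first (88.8) was below the highest of the second (90.3). For Cntfr 1419429_at the lowest group, G93A at 90 days with 6.86 ± 0.40, was followed by controls at 90 days with 7.37 ± 0.39, a gap above the SD although their arrays overlapped. No such gap was found for Agrn, whose means spanned 7.57 in G93A at 90 days and 4.07 in controls at 60 days, nor for Ret, Ngfr or Ntrk2.

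As a description over the 18 arrays, which share labelling, hybridization and scaling, Lifr and Cntfr ran in opposite directions (Pearson r = -0.69, Spearman rho = -0.76), as did Gfra1 and Agrn (-0.58 and -0.63), while Cntfr and Ret ran together (0.55 and 0.56). Gfra1 and Ret, the chains of the GDNF receptor, had the highest rank correlation of the 36 pairs of genes, 0.71, with a Pearson r of 0.37. By Pearson r among 10051 genes, the log2 signal of Lifr was most like that of Tbk1 (r = 0.96) and Psmd14 (0.95), and that of Agrn most like Spcs3 (0.93) and Cox4i1 (0.91). Ret was most like Lyl1 (0.90) and Araf (0.88), Cntfr most like Cysrt1 (0.88) and Syt3 (0.87), Il6st most like Anapc5 and Kars (0.88 each), and Gfra1 most like Tnfsf8 (0.85) and Tbx3 (0.84). Ngfr was most like Ppil4 (0.78) and Acvr1c (0.72), with Spearman rho of 0.75 and 0.69, and Ntrk2 most like C2 (0.76) and Prr3 (0.74), with rho of 0.86 and 0.78. For Ntrk3 1425071_s_at the nearest were Zfp932 (0.85) and Usp25 (0.84), with rho of 0.55 and 0.53, so the order of these 3 genes by r is not their order by rank.

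The ligands and partners of these receptors were counted in lists, 1 probe set per gene, and in none of the 6 lists did a gene pass in a genotype comparison. Of 9 ligands of the Cntfr and Lifr complexes 4 were tested, with a median genotype difference of -0.16 at 60 days, -0.75 at 90 days and 0.37 at 120 days, beside -0.06, 0 and 0.07 over all genes. Lif itself was at -2.18 ± 1.19 at 60 days without overlap (limma, adjusted p = 0.465), and cardiotrophin Ctf1 at 1.39 ± 0.73 (adjusted p = 0.443). Of 4 GDNF family ligands 3 were tested, with medians of -1.29, -0.60 and 0.41 at the 3 ages. Their summed signal was 110 in G93A against 291.6 in controls at 60 days, and 114.9 in G93A against 172.8 in controls at 90 days (exact permutation p = 0.1 each, the smallest possible). Neurturin (Nrtn) had the lowest p of these at 60 days, with -2.75 ± 0.79 and no overlap (adjusted p = 0.114). Bdnf, the single tested neurotrophin, gave -0.36, -0.33 and -0.15 (SE 1.09 each).

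Of 12 further receptors of the 3 families 10 were tested, with genotype medians of 0.09, -0.02 and 0.13. Osmr, which pairs with Il6st to bind oncostatin M, was at 2.97 ± 0.95 at 120 days, where the groups did not overlap (limma, adjusted p = 0.206). By age 2 genes of this list passed, 1 of 10 in each of 2 comparisons that called 7.65% and 6.71% of all probe sets. Gfra2, the neurturin receptor, fell by 2.24 ± 0.67 in G93A at 120 against 90 days (adjusted p = 0.0393), and Gfra3, the artemin receptor, fell by 1.43 in controls at 120 against 60 days (adjusted p = 0.0447).

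Of 41 genes of shared signalling 29 were tested, with genotype medians of -0.02, 0.06 and 0.18. Necdin (Ndn), which binds Ngfr and Trk receptors, differed by genotype by 1.68 ± 0.42 at 60 days (adjusted p = 0.0649 by limma) and by -1.10 ± 0.42 at 120 days (adjusted p = 0.292), both without overlap and neither passing. It fell by 1.92 ± 0.42 in G93A at 120 against 90 days (adjusted p = 0.00622) and rose by 2.48 in controls at 90 against 60 days (adjusted p = 0.00425). The adaptor Gab1 and the kinase Map2k2 rose in G93A at 120 against 90 days, by 1.35 and 1.68, and were the other 2 of 3 genes called there, where 7.65% of all probe sets were. In controls at 120 against 60 days, where 6.71% of all probe sets were called, 3 of the 29 rose and 4 fell, among them Ndn at 1.91 and the exchange factor Sos1 at -4.47.

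Of 14 genes of the agrin pathway 8 were tested, with genotype medians of 0.03, -0.29 and -0.14. The acetylcholine receptor subunit Chrnb1 was at 2.82 ± 1.21 at 120 days without overlap (limma, adjusted p = 0.346). Dystroglycan (Dag1), which binds agrin, was at 0.44 and 0.43 at 60 and 120 days (SE 0.31 each). Beta-catenin (Ctnnb1) was at 1.45 ± 0.49 at 60 days (adjusted p = 0.177) and fell by 1.95 ± 0.49 in G93A at 120 against 90 days (adjusted p = 0.0143), the single gene of the list called in any comparison by age. This is 1 of 8, where 7.65% of all probe sets were called.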

How the data were processed

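Each deposited value is a linear signal intensity of 1 probe set, which the authors computed with MAS5 (submitters' processing notes, without a version). A check found each array scaled to a mean of 100.04 to 100.06 after trimming 2% at each end. Depth has no meaning for arrays, and 3 animals per group limit the precision. Signals under 1 were set to 1 (0.236% of 408420 values) and put on the log2 scale, with no further normalization.

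Probe sets above the array median in at least 3 of 18 arrays were tested, without the 64 control probe sets. Group means over all 18 arrays were fitted with limma 3.58.1 in R 4.3.3 (empirical Bayes with a trend, 12 residual degrees of freedom), and two-sided p-values were adjusted by Benjamini-Hochberg over 16565 probe sets within each of 11 comparisons, with a threshold of 0.05. The script was tested on simulated data. Errors after ± are standard errors unless SD is given.

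All 21 probe sets of the 9 genes were reported. A list took for each gene the brightest tested probe set, and for each list up to 3 genes of smallest p at each age could be named. List genes called by age were named after their values were seen. The genes and lists were chosen with earlier results of these data known. With group means removed, log2 signals correlated no better between arrays of the same replicate number (mean 0.002 over 45 pairs) than of different numbers (-0.001 over 90), so animals were not paired. No 2 arrays held identical values. Detection calls were not used here. Alternatives covered the floor, filter, scaling, variance model, arrays in the fit, replicate number, covariates and each array left out.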

Additional observations from a re-analysis of the deposited data

Results flagged for a closer look

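For Lifr 1454984_at the genotype difference was -1.25 ± 0.54 on the log2 scale at 120 days and 1.80 ± 0.54 at 60 days. The F test over the 3 ages did not pass (limma, adjusted p = 0.113), whereas the single contrast between these ages, added after the data were seen, passed at -3.05 ± 0.76 (adjusted p = 0.0373). At 60 days 3 of 3 G93A arrays were above the controls, while at 120 days the genotypes overlapped. Over 28 alternatives the contrast ran from -3.60 to -2.22 and its adjusted p from 0.00903 to 0.259, and 16 of them kept the call. Beside it, the hybridization controls averaged a log2 signal of 9.47 in G93A and 11.15 in controls at 60 days, and 11.62 in G93A and 11.64 in controls at 120 days. With their level as a covariate the contrast was -2.22 ± 0.75 and no longer passed (adjusted p = 0.259).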

How the results depend on the processing

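The count of 0 of 13 probe sets called by genotype was kept at 90 and 120 days and in the mean over ages under every alternative run. At 60 days, and in the F test, it was 0 to 1 when 1 array was left out. The single contrast of 120 against 60 days, added after the data were seen, called 1. In G93A at 120 against 90 days the 2 calls became 1 with log2(signal + 16), with no filter, with quantile normalization, with median centring, without the trend and with the replicate number as a block, and 0 with the hybridization-control covariate. Leaving out 1 array gave 1 to 2. In G93A at 120 against 60 days the 1 call became 0 without the trend and with that covariate, and leaving out 1 array gave 0 to 1. In controls at 90 against 60 days quantile normalization gave 1 call in place of 0, as did some fits with 1 array left out (0 to 1). In controls at 120 against 60 days the 1 call became 2 with log2(signal + 16), with the replicate block and with the hybridization-control covariate, and 0 without the trend and with the Gapdh ratio as covariate, and leaving out 1 array gave 0 to 2. The replicate block changed no other count. Of 130 differences, 76 kept their sign in all 27 to 29 alternatives and 54 did not; of the 39 genotype differences at 1 age, 25 did. The cause of these shifts was not tested.

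Over all probe sets the calls moved more. At 60 days 114 became 1 with the hybridization-control covariate and ran from 7 to 267 with 1 array left out. At 120 days 4 became 52 with that covariate and ran from 0 to 141, and in the mean 2 ran from 0 to 16. The F test's 69 became 0 without the trend and 238 with median centring. In G93A at 120 against 90 days 1267 became 18 with the hybridization-control covariate and 1889 with array weights, and at 120 against 60 days 331 became 28 and 436. In controls at 120 against 60 days 1112 became 143 with the Gapdh covariate and 1803 with the hybridization-control covariate, at 90 against 60 days 266 became 28 without the trend, and at 120 against 90 days 173 became 0. Median centring moved the median difference over all probe sets to 0.16 at 60 days, 0.14 at 90 days and -0.23 at 120 days, where it was -0.07, -0.02 and 0.09 as deposited. Ntrk3 and Ngfr, above the array median on at most 6 of 18 arrays, are limited by low signal.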
